A study of Mus musculus with 38 samples.

Results

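Tcf21 and Msc (also called musculin) are tissue-restricted basic helix-loop-helix transcription factors, and Tcf3, Tcf4 and Tcf12 encode the E proteins that such factors pair with. These 5 genes were taken by symbol from the 25746 genes of the deposited transcript tables, and the 115 open chromatin regions within 50 kb of them were taken from the 123191 regions that the ATAC-seq peak lists form when merged. The cells were Tcf21 lineage cells sorted from visceral fat of mice, with 5000 cells per library, from mice whose MerCreMer, a Cre recombinase that tamoxifen switches on, had been induced by gavage of adults (pregnant females included) or by injection of newborns. The route used for each group, the promoter that drives MerCreMer, the gate of the sort and the part of Tcf21 that the knockout removes were not given in the sources used here, nor was whether replicates came from separate animals.

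RNA-seq covered 8 groups. Tcf21 knockout (KO) cells came from mice aged 3 weeks (3W, 5 libraries), from mice fed high-fat diet for 1 week (1W HFD, 2 libraries) and from mice fed it for 12 weeks (12W HFD, 2 libraries). Wild-type (WT) cells came from postnatal day 12 (P12, 2 libraries), 3W (7 libraries), 1W HFD (4 libraries), 12W HFD (5 libraries) and 6 months of age (6M, 2 libraries). High-fat feeding started at 6 weeks of age. The 3W and 6M mice ate regular chow, and the P12 group had no high-fat diet. The high-fat groups thus differ from the 3W groups in age and diet together, and those cannot be told apart. ATAC-seq, which maps open chromatin with a transposase, covered KO 3W (2 libraries), WT 3W (3 libraries), WT 1W HFD (2 libraries) and WT 12W HFD (2 libraries). Groups follow the sample titles. The separate genotype entry differs from the title in 22 of 38 samples, and matches it in 38 of 38 when the list is read backwards. Every KO and WT name here is that of the title.

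Basic helix-loop-helix proteins bind DNA as dimers at the E-box, CANNTG. E proteins are made in most cell types and dimerize with factors that are restricted to certain lineages, such as MyoD in muscle, Twist in mesenchyme, or Tcf21 and Msc. Id proteins have the dimerization domain but lack the DNA-binding region, and they keep E proteins away from DNA. Tcf21 marks mesenchymal progenitors of several organs, the visceral fat depots among them, and Msc was described as a repressor of muscle gene programmes in myoblasts.

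The promoter sequences below show where Tcf21, Tcf3 and Tcf12 start and which E-boxes lie there, because the proteins act through that motif. They are RefSeq sequences on GRCm38.p6 (the assembly of mm10), each with 250 bases before and 50 bases after an annotated start on the minus strand, and E-boxes are in capitals. The Tcf21 window is chr10:22820094-22820393, the Tcf3 window is chr10:80433586-80433885, the first Tcf12 window is chr9:72111770-72112069, and the other Tcf12 window shown, at an internal start, is chr9:71896047-71896346. RefSeq also has a Tcf12 start with the window chr9:72111152-72111451, beside the first (75.7% GC, 45 CpG and 2 E-boxes, CAAGTG and CACTTG), which is not printed. Promoters of Msc and Tcf4 were not analysed here.
Tcf21: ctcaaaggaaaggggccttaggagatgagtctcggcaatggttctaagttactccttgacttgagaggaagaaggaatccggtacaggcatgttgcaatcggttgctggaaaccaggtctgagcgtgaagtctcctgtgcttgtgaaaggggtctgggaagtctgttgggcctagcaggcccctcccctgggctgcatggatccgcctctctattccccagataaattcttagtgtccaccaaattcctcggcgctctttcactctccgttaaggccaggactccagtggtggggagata
Tcf3: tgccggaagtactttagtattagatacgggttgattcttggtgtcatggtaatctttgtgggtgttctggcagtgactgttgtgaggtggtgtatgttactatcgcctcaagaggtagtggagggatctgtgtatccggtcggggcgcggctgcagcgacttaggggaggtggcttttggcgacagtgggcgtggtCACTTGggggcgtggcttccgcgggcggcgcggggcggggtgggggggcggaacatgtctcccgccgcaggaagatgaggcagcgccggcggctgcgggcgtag
Tcf12, first start: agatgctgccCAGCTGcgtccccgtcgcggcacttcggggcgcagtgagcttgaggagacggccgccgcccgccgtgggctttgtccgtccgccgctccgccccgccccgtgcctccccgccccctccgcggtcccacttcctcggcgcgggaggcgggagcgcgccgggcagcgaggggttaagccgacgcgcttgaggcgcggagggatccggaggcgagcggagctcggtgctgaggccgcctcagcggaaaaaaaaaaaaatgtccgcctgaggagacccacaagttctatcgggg
Tcf12, internal start: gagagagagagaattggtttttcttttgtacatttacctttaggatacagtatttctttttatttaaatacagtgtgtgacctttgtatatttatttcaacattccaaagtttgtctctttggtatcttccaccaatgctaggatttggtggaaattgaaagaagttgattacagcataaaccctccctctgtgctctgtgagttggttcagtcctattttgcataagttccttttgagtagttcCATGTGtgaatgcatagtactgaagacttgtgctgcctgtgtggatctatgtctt

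The Tcf21 window held 0 E-boxes, whereas 72.3% of 32817 promoters of the same length held at least 1 on either strand. The Tcf3 window held CACTTG, whose first base lies 54 bases before the start, and the first Tcf12 window held CAGCTG at 240 bases before it. CAGCTG occurred in 16.3% of all promoters. Base composition also differed: GC content was 53.3% at Tcf21, close to the median promoter (52.7%), 61.7% at Tcf3 and 71.7% at the first Tcf12 start, but 36.3% at the internal Tcf12 start. CpG dinucleotides numbered 8, 25, 41 and 0 in that order of windows, against a median of 7. A match is only a run of letters, and its absence holds for these windows alone.

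All 5 genes were at or above 1 TPM (a length-normalized share of transcripts) in all 29 libraries, so all 5 passed the low-value filter that left 15659 genes for testing. On mm10, Tcf21 (ENSMUSG00000045680) spans chr10:22817281-22820174, Msc (ENSMUSG00000025930) chr1:14753346-14755992, Tcf3 (ENSMUSG00000020167) chr10:80409514-80433647, Tcf4 (ENSMUSG00000053477) chr18:69343356-69689079 and Tcf12 (ENSMUSG00000032228) chr9:71842688-72111871. Tcf4 was the highest of the 5 in 29 of 29 libraries. Its level ran from 74.99 to 254.01 TPM, and in a typical library it stood above 93.0% of tested genes. Msc had a median of 49.15 TPM over the libraries, Tcf12 of 22.49 TPM, Tcf21 of 20.01 TPM and Tcf3 of 14.48 TPM. The progenitor marker Pdgfra was present at 63.9 to 188.3 TPM in all libraries, which does not test the lineage label or the purity of the sort. TPM columns carry no read depth, so depth is unknown and no counting interval can be given.

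**Figure D1:**
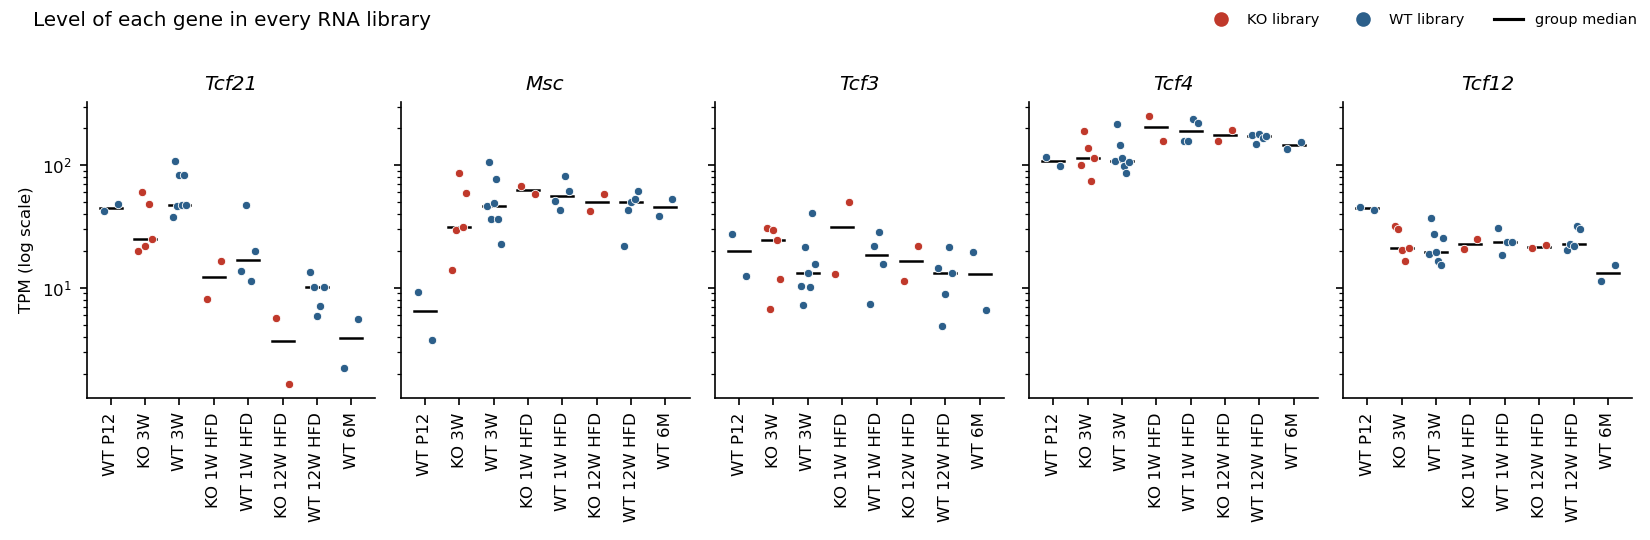
Level of each of the 5 genes in every RNA-seq library (TPM, log axis), 1 point per library, with the groups in order of age and KO beside WT at the shared times. Tcf21 is lower in the high-fat and 6M groups than at 3W, Msc is low at P12 alone, and Tcf4 is the highest gene in 29 of 29 libraries.

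Tcf21 was lower in WT cells at each later time than at 3W. It measured 42.31 and 48.09 TPM at P12. At WT 3W the lowest, median and highest of 7 libraries were 37.61, 47.56 and 109.23 TPM. The WT 1W HFD libraries had 13.61, 47.43, 11.29 and 19.98 TPM, so one of 4 reached the WT 3W range. At WT 12W HFD the values were 13.46, 10.24, 5.86, 7.13 and 10.14 TPM, and at 6M they were 2.24 and 5.54 TPM. Neither of the last groups overlapped the WT 3W range.

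Changes below are log2 differences of TPM plus 1, tested with limma over 15659 genes with Benjamini-Hochberg adjustment; the scale understates changes of low genes. Against WT 3W, Tcf21 fell at WT 1W HFD (log2 change -1.57 ± 0.38 SE, adjusted p = 0.00936), where 8.03% of all genes passed. The change at WT 12W HFD was -2.62 ± 0.35 (SE, adjusted p = 2.91e-06), with 14.2% of all genes passing, and at 6M it was -3.74 ± 0.49 (SE, adjusted p = 9.28e-06), with 10.8% passing. Each of these comparisons uses the same 7 WT 3W libraries, and Tcf21 was the one member of the 5 that passed in each. Of the other neighbouring times, 3W against P12 did not pass (0.42 ± 0.49 SE, adjusted p = 0.759), nor did 12W against 1W HFD or 12W HFD against 6M. The 1W HFD call did not hold without WT 1W HFD replicate 3 (adjusted p = 0.0632), and over all alternatives tried its adjusted p ran from 0.0021 to 0.0632. In bulk RNA, fewer cells with a transcript and less transcript per cell cannot be told apart.

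The KO libraries showed the same order of times for Tcf21. They measured 20.01, 60.88, 21.88, 48.2 and 25.1 TPM at 3W, 8.1 and 16.45 TPM at 1W HFD, and 5.67 and 1.64 TPM at 12W HFD, with no overlap between 3W and the later times. KO 12W HFD against KO 3W gave -2.97 ± 0.51 (SE, adjusted p = 0.000258), and 5.15% of all genes passed. Without KO 12W HFD replicate 2 the adjusted p was 0.0639, the highest over the alternatives, whose lowest was 5.5e-05. The change at KO 1W HFD against KO 3W was -1.38 ± 0.51 (SE, adjusted p = 0.234), with 0 of the 5 genes and 0.862% of all genes passing. Between the high-fat times, Tcf21 differed by -1.59 ± 0.60 in KO (adjusted p = 0.363) and by -1.04 ± 0.41 in WT (adjusted p = 0.143). In those comparisons 0 of the 5 genes passed, against 0.76% of all genes in KO and 5.93% in WT. At an unadjusted p under 0.05, limma counted 1800 genes for KO 1W HFD against 3W, 1245 for KO 12W against 1W HFD and 2838 for WT 12W against 1W HFD.

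High-fat and 6M libraries also held more macrophage transcript. The summed level of 10 macrophage markers was 3444.91 to 10510.3 TPM at WT 12W HFD, 2914.09 to 6863.28 TPM at 6M and 537.88 to 816.34 TPM at WT 1W HFD, against 40.71 to 201.12 TPM at WT 3W. Summed levels of 10 adipose progenitor markers were 24059.6 to 26687.4 TPM at WT 12W HFD, 26636.5 to 31734 TPM at 6M and 24396.9 to 40176.9 TPM at WT 3W. Of the macrophage markers, Adgre1 was listed at 0 in 1 library and Ptprc in 2, and the other 8 in none. The progenitor ranges overlap whereas the macrophage ranges of the later WT groups do not overlap that of WT 3W. Lymphocyte marker sums were 11.99 to 162.46 TPM at WT 12W HFD, against 0.22 to 8.41 TPM at WT 3W. Endothelial marker sums were 126.47 to 385.07 TPM at WT 1W HFD, against 28.46 to 84.5 TPM at WT 3W, with no overlap. Pericyte and smooth muscle marker sums were 17.33 and 45.52 TPM at 6M, against 92.56 to 2347.39 TPM at WT 3W, again with no overlap. Erythroid marker sums varied widely, between 9.68 and 41698.7 TPM over all libraries. In KO cells the macrophage sums were 2806.74 and 6125.45 TPM at 12W HFD, against 101.99 to 626.31 TPM at 3W. The part of these markers in the Tcf21 differences was not tested.

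Msc followed another course. At WT 3W it ran from 22.74 to 106.42 TPM with a median of 46.28 TPM, against 9.28 and 3.73 TPM at P12, and these did not overlap. The change at WT 3W against P12 was 2.81 ± 0.49 (SE, adjusted p = 0.0015), a 6.99-fold higher level on the TPM plus 1 scale, where 1.63% of all genes passed. It was the one member to pass in that comparison and did not pass without WT P12 replicate 2 (adjusted p = 0.0597) or when these 2 groups were fitted alone (adjusted p = 0.104). The lowest adjusted p over the alternatives was 0.000849. Pericyte and smooth muscle marker sums were 92.56 to 2347.39 TPM at WT 3W, a range that holds both P12 values of 1375.31 and 2139.75 TPM. Endothelial marker sums were 28.46 to 84.5 TPM at WT 3W, against 240.04 and 421.73 TPM at P12; those ranges do not overlap. Of the 7 endothelial markers, Pecam1 (-4.81), Vwf (-4.95) and Cldn5 (-4.91) passed as lower at WT 3W. Erythroid marker sums were 1116.24 to 9488 TPM at WT 3W, against 879.64 and 9.68 TPM at P12, and 4 of the 5 markers passed as higher at WT 3W: Hba-a1 (5.34), Hba-a2 (5.51), Hbb-bs (4.81) and Hbb-bt (4.93), with limma adjusted p of 0.00774 to 0.0173. The progenitor marker Pdgfra also passed as higher (0.97, adjusted p = 0.047). The part of these markers in the Msc difference was not tested.

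After 3 weeks the Msc level showed no further change that passed. It was 51.2, 43.18, 81.35 and 61.6 TPM at WT 1W HFD, then 22.03, 43.35, 49.76, 52.93 and 61.21 TPM at WT 12W HFD, and 38.45 and 52.82 TPM at 6M. Against WT 3W the change was 0.27 at 1W HFD, -0.13 at 12W HFD (95% interval -0.88 to 0.61) and -0.08 at 6M. KO cells had 13.91, 29.85, 85.74, 31.63 and 59.25 TPM at 3W, 67.56 and 57.78 TPM at 1W HFD, and 42.41 and 58.27 TPM at 12W HFD. The 3W KO libraries spanned most of the WT 3W range.

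The share of Tcf21 in summed Tcf21 and Msc TPM was lower at each later time. It was 82.0% and 92.8% at P12, 38.1% to 69.8% at WT 3W (median 56.1%), 12.2% to 52.3% at WT 1W HFD (median 22.7%), 10.5% to 37.9% at WT 12W HFD (median 14.2%), and 5.51% and 9.49% at 6M. Msc exceeded Tcf21 in 0 of 2 P12 libraries, 2 of 7 at WT 3W, 3 of 4 at WT 1W HFD, 5 of 5 at WT 12W HFD and 2 of 2 at 6M. In KO cells the shares were 20.3% to 67.1% at 3W, 10.7% and 22.2% at 1W HFD, and 11.8% and 2.74% at 12W HFD. These shares describe transcripts, not proteins.

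**Figure D2:**
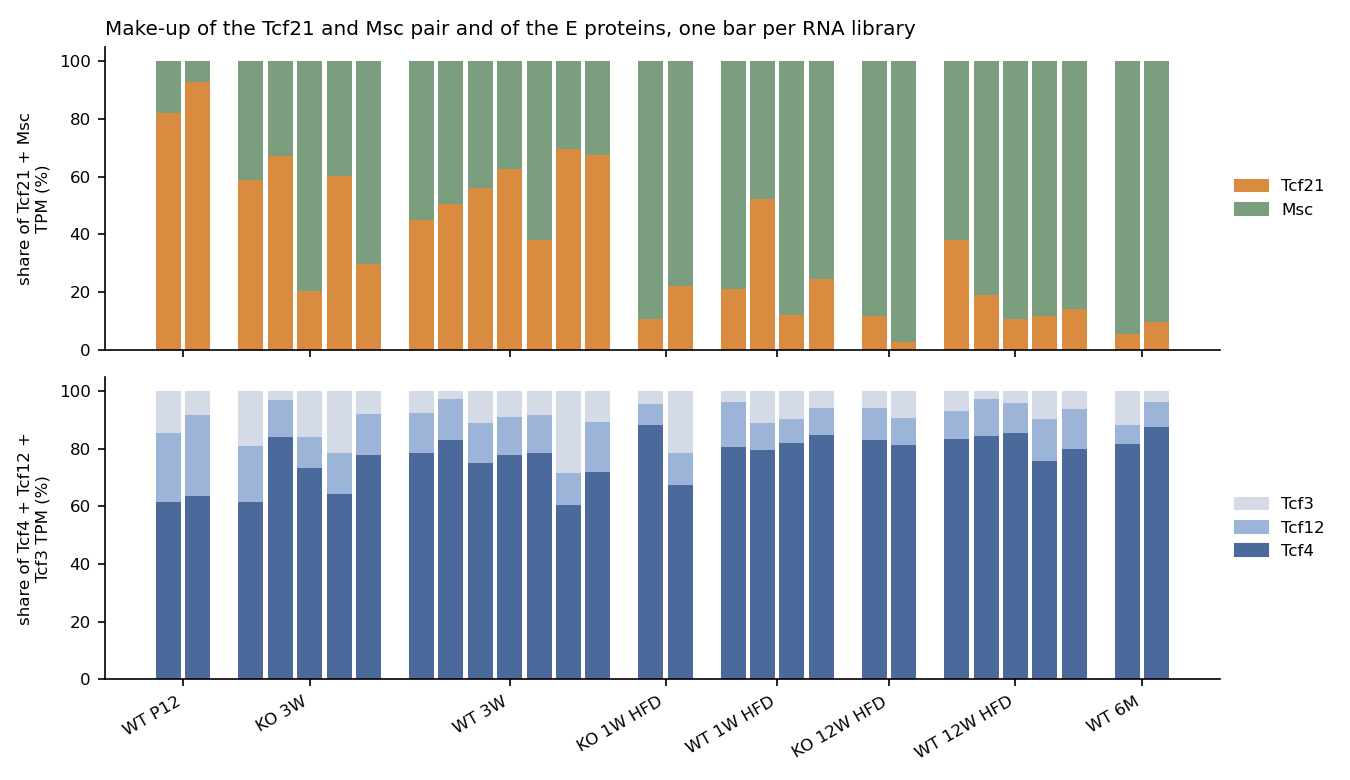
Composition of the helix-loop-helix transcripts by library: Tcf21 as a percent of Tcf21 plus Msc, and each E protein as a percent of the E protein sum, 1 bar per library. The Tcf21 share is 82.0% and 92.8% at P12 and 5.51% and 9.49% at 6M, while Tcf4 holds 60.7% to 88.3% of E protein transcript in every library.

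Tcf4, which encodes the E protein E2-2, was the main E protein transcript at every time. It averaged 108 ± 12.7 TPM at P12 (SD, n = 2) and 125 ± 44.5 TPM at WT 3W (SD, n = 7). Averages were 194 ± 40.7 TPM at WT 1W HFD (SD, n = 4), 169 ± 11.8 TPM at WT 12W HFD (SD, n = 5) and 146 ± 12.8 TPM at 6M (SD, n = 2). The 5 WT 12W HFD libraries stood closest together, at 176.03, 150.15, 180.76, 167.29 and 172 TPM. The WT 1W HFD libraries ran from 158.98 to 236.61 TPM, against 86.41 to 216.91 TPM at WT 3W, so the groups overlap. The changes were 0.67 ± 0.22 at 1W HFD (SE, adjusted p = 0.0598) and 0.49 ± 0.21 at 12W HFD (SE, adjusted p = 0.116), and neither passed. Both passed without WT 3W replicate 2, at 0.81 (adjusted p = 0.0127) and 0.64 (adjusted p = 0.0209). Over all alternatives the adjusted p was 0.0103 to 0.212 at 1W HFD and 0.0209 to 0.214 at 12W HFD. WT 3W replicate 2 was the highest library of its group for Tcf21, Msc, Tcf4 and Tcf12 and the lowest for Tcf3 (7.24 TPM). It also had the lowest progenitor sum (24396.9 TPM) and the highest pericyte and smooth muscle sum (2347.39 TPM) of the group. Without this library the Tcf21 change at WT 12W HFD against WT 3W was -2.48.

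Tcf12, which encodes the E protein HEB, was highest at P12, with 45.46 and 43.53 TPM. It was 15.32 to 37.29 TPM at WT 3W (22.9 ± 7.75, SD, n = 7), 18.54 to 30.7 TPM at WT 1W HFD (24.2 ± 4.99, SD, n = 4), 20.18 to 32.03 TPM at WT 12W HFD (25.4 ± 5.28, SD, n = 5), and 11.29 and 15.23 TPM at 6M. Neither P12 library overlapped the WT 3W range, and both 6M libraries lay below all WT 3W libraries. The WT 3W against P12 change was -0.99 ± 0.29 (SE, adjusted p = 0.0798) and the 6M against WT 3W change was -0.70 ± 0.29 (SE, adjusted p = 0.124), so neither passed. For WT 12W HFD against 6M, Tcf12 differed by 0.88 ± 0.30 (adjusted p = 0.16) and Tcf21 by 1.12 ± 0.51 (adjusted p = 0.314). Here 0 of the 5 genes passed under limma, while 0.881% of all genes did and 2189 genes had an unadjusted p under 0.05. The KO libraries had 16.48 to 32.14 TPM at 3W, 20.62 and 25.09 TPM at 1W HFD, and 20.97 and 22.49 TPM at 12W HFD, all within the WT 3W range. In the table, 7 annotated genes lie inside the bounds of Tcf12, none above 8.38 TPM in any library, and whether reads were counted by strand was not given in the sources used here.

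Tcf3, which encodes E12 and E47 by alternative splicing, had the largest standard error of the 5 in the comparison of KO with WT at 3W. It ranged from 4.89 to 49.83 TPM over all libraries, and the 2 KO 1W HFD libraries alone had 12.95 and 49.83 TPM. P12 had 27.49 and 12.57 TPM, WT 3W averaged 16.9 ± 11.4 TPM (SD, n = 7), WT 1W HFD 18.3 ± 8.94 TPM (SD, n = 4) and WT 12W HFD 12.6 ± 6.32 TPM (SD, n = 5), and 6M had 19.56 and 6.59 TPM. The WT 12W HFD against 3W change was -0.34 with a 95% interval of -1.27 to 0.59. No order of the groups can be read from values that overlap this far. KO cells had 6.7 to 30.96 TPM at 3W and 11.27 and 21.83 TPM at 12W HFD.

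Tcf4 made up 60.7% to 88.3% of the E protein sum in each library. Tcf12 contributed 24.0% and 28.1% at P12, 10.8% to 17.3% at WT 3W, and 6.73% and 8.62% at 6M. The E protein sum itself was 116.3 to 288.8 TPM. Set against the sum of Tcf21 and Msc, E protein transcript stood at 1.00 to 2.36 (median 1.21) at WT 3W, 2.20 to 3.19 at WT 1W HFD, 3.02 to 5.94 (median 3.68) at WT 12W HFD, and 3.03 and 4.12 at 6M. The P12 libraries, with little Msc, had ratios of 2.99 and 3.68. In WT cells the ranges at 3W and 12W HFD did not overlap, while that at 1W HFD overlapped both. In KO cells the ratio was 1.46 to 4.83 at 3W, 3.11 and 3.80 at 1W HFD, and 3.95 and 3.97 at 12W HFD, so the 3W range held the later values.

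Tcf4 in KO cells had 100.7, 191.38, 137.2, 74.99 and 115.12 TPM at 3W, 254.01 and 156.3 TPM at 1W HFD, and 158.62 and 192.34 TPM at 12W HFD. At 12W HFD one KO library lay within the WT 12W HFD range and the other above it.

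The knockout comparison asks what else of the dimer system moves when Tcf21 is lost. KO cells still held Tcf21 transcript at each time. The log2 change against WT was -0.91 ± 0.35 at 3W (95% interval -1.64 to -0.17), -0.71 ± 0.52 at 1W HFD and -1.26 ± 0.51 at 12W HFD (95% interval -2.31 to -0.20), with an adjusted p of 1 at each time by limma. KO libraries had 20.01 to 60.88 TPM at 3W, against 37.61 to 109.23 TPM in WT, and these overlap. The titles number pairs of 3W libraries without saying what is shared. In all 5 pairs Tcf21 was lower in KO (-0.89 ± 0.11 on average, SD, n = 5). The pair numbers were not used in the tests given here. At 12W HFD the KO libraries had 5.67 and 1.64 TPM, against 5.86 to 13.46 TPM in WT, and these do not overlap. An exact two-sided permutation test gave p = 0.0341 at 3W, p = 0.467 at 1W HFD and p = 0.0476 at 12W HFD, the last being the smallest p that 2 against 5 libraries can give. At 1W HFD the exact test of 2 against 4 libraries cannot go below p = 0.0667.

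None of the partners passed in KO against WT at any time. Tcf4 differed by -0.02 ± 0.21 at 3W (SE, 95% interval -0.45 to 0.41), by 0.06 ± 0.30 at 1W HFD and by 0.05 ± 0.29 at 12W HFD. Tcf12 differed by 0.09 ± 0.21, -0.06 ± 0.31 and -0.20 ± 0.30 at the same times. For Msc, the changes were -0.36 ± 0.36, 0.11 ± 0.53 and 0.19 ± 0.51. Tcf3 had 0.29 ± 0.45, 0.61 ± 0.66 and 0.44 ± 0.64. The 5 genes thus gave 0 calls at each time, where limma called 0.0%, 0.0255% and 0.00639% of all genes, and 546, 540 and 570 genes had an unadjusted p under 0.05. The intervals of Msc and Tcf3 are wide: for Tcf3 at 3W the interval was -0.64 to 1.21.

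Whether the KO effect on Tcf21 differed between times was tested as an interaction. The effect at 12W HFD minus that at 3W was -0.35 ± 0.62 (SE, limma adjusted p = 1), and at 1W HFD minus 3W it was 0.19 ± 0.63 (adjusted p = 1). Between the high-fat times, 12W minus 1W, it was -0.54 ± 0.73 (adjusted p = 1). Macrophage marker sums were 101.99 to 626.31 TPM at KO 3W, against 40.71 to 201.12 TPM at WT 3W, and these overlap. They were 1156.56 and 1198.76 TPM at KO 1W HFD, against 537.88 to 816.34 TPM at WT 1W HFD, which do not overlap. At KO 12W HFD they were 2806.74 and 6125.45 TPM, against 3444.91 to 10510.3 TPM at WT 12W HFD, which overlap. The part of these sums in the KO differences was not tested.

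**Figure D3:**
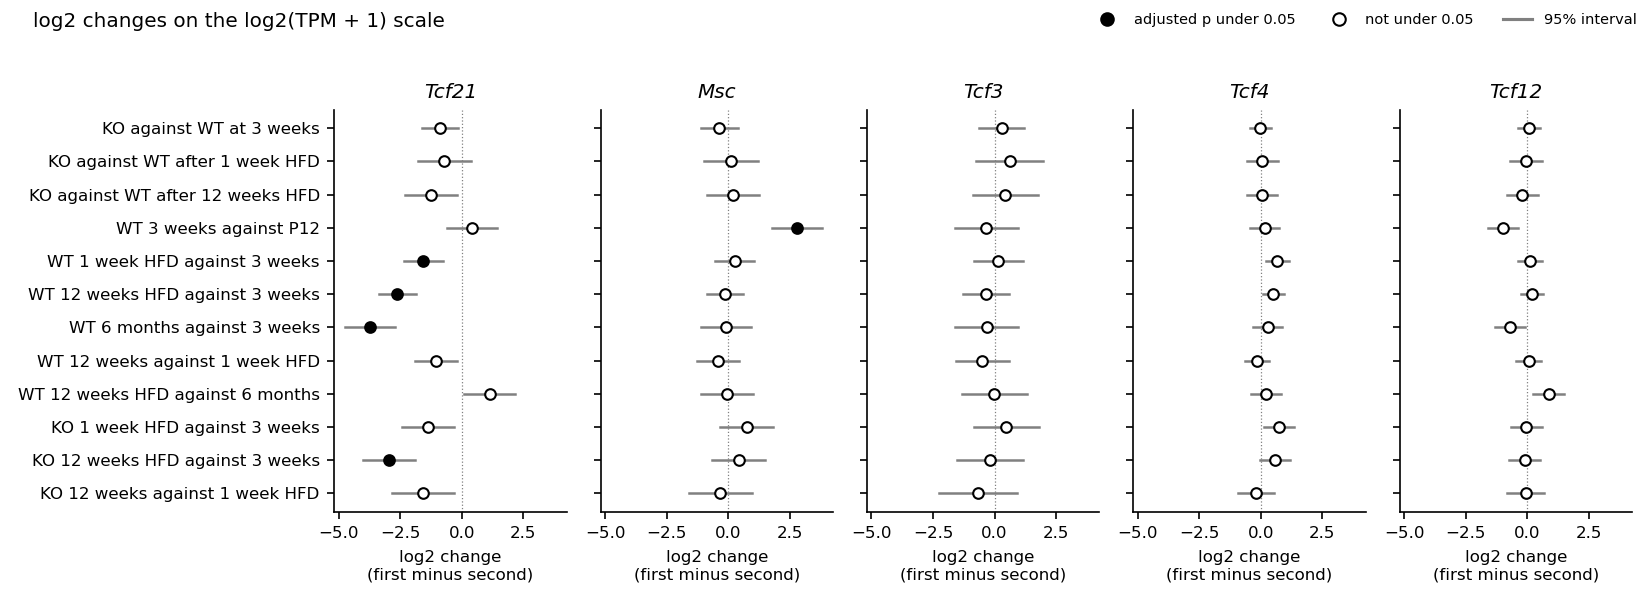
Log2 change of TPM plus 1 for the 5 genes in each comparison, with 95% intervals, and calls marked (limma adjusted p under 0.05). Tcf21 passes in the comparisons with 3W (-1.57 at WT 1W HFD, -2.62 at WT 12W HFD, -3.74 at WT 6M, -2.97 at KO 12W HFD), Msc passes at WT 3W against P12, and none of the 5 passes in KO against WT.

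Other genes of the dimer system were described from lists chosen with earlier results of these data known. Of the 4 Id inhibitors, all 4 were tested, and 3 fell while 0 rose at WT 12W HFD against WT 3W, where 14.2% of all genes passed (976 lower and 1244 higher of 15659). Their median change was -1.05, against -0.04 over all genes. Id3, the most abundant, averaged 710 ± 90.2 TPM at WT 12W HFD (SD, n = 5) and 1327 ± 353 TPM at WT 3W (SD, n = 7), a change of -0.87 (adjusted p = 0.0142). The Id1 call (-1.29, adjusted p = 0.0146) did not hold without WT 12W HFD replicate 2 (adjusted p = 0.0561). The Id2 call (-1.03, adjusted p = 0.0217) did not hold without WT 3W replicate 2 (adjusted p = 0.0527) or WT 12W HFD replicate 1 (adjusted p = 0.071). Over the alternatives the adjusted p was 0.0018 to 0.0685 for Id1 and 0.00111 to 0.071 for Id2. Summed Id transcript was 844.56 to 1158.61 TPM at WT 12W HFD, against 1294.71 to 2602.64 TPM at WT 3W. The E protein sum was 178.0 to 221.0 TPM in the WT 12W HFD libraries, against 125.0 to 261.4 TPM at WT 3W. Summed Id transcript lay below its WT 3W range, and summed E protein transcript lay within its own. In KO against WT, 0 of the 4 Id genes passed at any time, where 0.0% of all genes passed at 3W, 0.0255% at 1W HFD and 0.00639% at 12W HFD.

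Of 25 other tissue-restricted factors of the family, 9 passed the low-value filter. At WT 12W HFD against WT 3W, 2 of the 9 rose and 2 fell, against 14.2% of all genes passing, with a median of -0.05. Twist2, a mesenchymal factor, averaged 33.6 ± 8.12 TPM at WT 12W HFD (SD, n = 5) and 111 ± 18.0 TPM at WT 3W (SD, n = 7), a change of -1.72 (adjusted p = 5.25e-07). In KO cells Twist2 changed by -2.05 at 12W HFD against 3W (adjusted p = 4.33e-05). Lyl1, a blood and endothelial factor, averaged 4.88 TPM at WT 12W HFD and 0.436 TPM at WT 3W, a change of 2.00 (adjusted p = 0.000201); the macrophage sums above were higher in the same libraries, and their part in it was not tested. Tcf24 (0.92, adjusted p = 0.00635) and Tcf23 (-1.30, adjusted p = 0.0435) were the other two, both under 3 TPM on average in either group. The Tcf23 call was lost in 10 of 20 alternatives (adjusted p 0.0113 to 0.105), among them omission of WT 3W replicates 2, 3 or 6 or of any 1 WT 12W HFD library. No factor of the list passed in KO against WT, where at most 0.0255% of all genes did at any time.

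Among 12 cofactors, all tested, 1 rose and 2 fell at WT 12W HFD against WT 3W, against 14.2% of all genes passing, with a median of -0.34. Lmo2, a bridging protein of helix-loop-helix complexes, averaged 96.3 ± 26.9 TPM at WT 12W HFD (SD, n = 5) and 50.5 ± 24.9 TPM at WT 3W (SD, n = 7), a change of 1.12 (adjusted p = 0.0296). Its partner Ldb1 changed by -0.93 (adjusted p = 0.0153) and Ssbp3, which stabilizes Ldb1, by -0.79 (adjusted p = 0.0424). These 3 calls depend on single libraries: Lmo2 lost it without WT 3W replicate 3 or WT 12W HFD replicates 2, 3 or 4, Ldb1 without WT 12W HFD replicate 2 (adjusted p = 0.0508), and Ssbp3 in 10 of 20 alternatives. Over the alternatives the adjusted p was 0.0153 to 0.12 for Lmo2, 0.00438 to 0.0508 for Ldb1 and 0.0246 to 0.0988 for Ssbp3. At 6M against WT 3W, 1 cofactor rose (Lmo2, 1.62) and 4 fell (Runx1t1, Ep300, Crebbp and Ssbp3), where 10.8% of all genes passed and all genes had a median of -0.24. Over 17 alternatives this count ran from 2 to 5: Ep300 lost its call in 7 (adjusted p up to 0.533), Lmo2 in 5 (up to 0.258), Crebbp in 4 (up to 0.205), and Runx1t1 (0.0703) and Ssbp3 (0.0957) in 1 each. The call was lost without WT 6M replicate 1 by Runx1t1, Lmo2 and Crebbp, without WT 6M replicate 2 by Lmo2, Ep300 and Ssbp3, without WT 3W replicate 1 or 2 by Ep300, and without WT 3W replicate 3 by Lmo2. In KO against WT, 0 of the 12 passed, where at most 0.0255% of all genes did at any time.

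Genes whose levels followed Tcf21 most closely were ranked by Pearson correlation of log2 TPM plus 1 over the 29 libraries, among 9622 genes. Lsamp (r = 0.88), a neural adhesion molecule, Rbp4 (0.88), which carries retinol, Ptprd (0.88), a receptor phosphatase, Itm2a (0.87) and Plagl1 (0.87), an imprinted zinc-finger factor, led the list. Rbp4 averaged 34.7 TPM at WT 12W HFD and 707 TPM at WT 3W, and Itm2a 96.5 and 1418 TPM in those groups. After group means were removed the same 5 genes had r between 0.32 and 0.57, so much of the likeness lies between groups. For Msc the list was Slc43a3 (0.78), Irak3 (0.76), Xdh (0.75), Dpep1 (0.75) and C1qtnf7 (0.75), and within groups r was 0.55 to 0.70. The libraries share groups, so these are descriptions.

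Correlations between the members themselves cannot be ranked against those lists, which were picked for the highest r. Tcf21 and Msc had r = -0.21 over the 29 libraries and -0.10 within groups. Tcf21 and Tcf4 had r = -0.45 over the libraries and 0.00 within groups. Msc and Tcf4 had 0.48 and 0.41 on the same measures, and Tcf4 and Tcf12 0.16 and 0.54. These too are descriptions, over libraries that share groups.

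ATAC-seq peaks were merged over the 9 libraries into regions, and a region counts as open in a library where at least 1 of its peaks lies there. The 9 lists held 55990 to 93314 peaks and covered 75.6 to 172.6 Mb, so lists differ in length. Peak names begin with A or B, a difference whose meaning the labels do not give. B is carried by replicate 2 of KO 3W and by replicates 2 and 3 of WT 3W, and A by all others. The titles number KO 3W replicate 1 and WT 3W replicate 1 as a pair, both with A. They also number KO 3W replicate 2 and WT 3W replicate 3 as a pair, both with B, without saying what is shared. Within 50 kb there were 11 regions at Tcf21, 6 at Msc, 19 at Tcf3, 49 at Tcf4 and 30 at Tcf12. Tcf4 and Tcf12 are long genes, and their windows span 445724 and 369184 bases, against 102894 bases at Tcf21. No other gene of the table lies in the Tcf21 or Tcf4 window, while 4 lie in that of Tcf3.

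The RefSeq starts of Tcf21 and Tcf3 and the first Tcf12 start lay in regions open in all 9 libraries, as did the upper end of Msc and the lower end of Tcf4. The Tcf21 start lies in chr10:22817619-22824169, which also covers most of the gene, and its authors' fold enrichment stood above 68.3% to 87.7% of the peaks in each library's own list. A second region, chr10:22811429-22817014, lies 267 bases past the gene's 3′ end and was open in all 9, KO included. These regions at the E protein genes stood above 95.5% to 99.4% of peaks at Tcf3, 90.0% to 95.7% at Tcf4 and 86.7% to 98.5% at Tcf12. The Msc region, chr1:14753613-14758409, stood above 79.7% to 90.2%. The CpG-free internal Tcf12 window printed above was in a region open in 8 of 9 libraries.

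**Figure D4:**
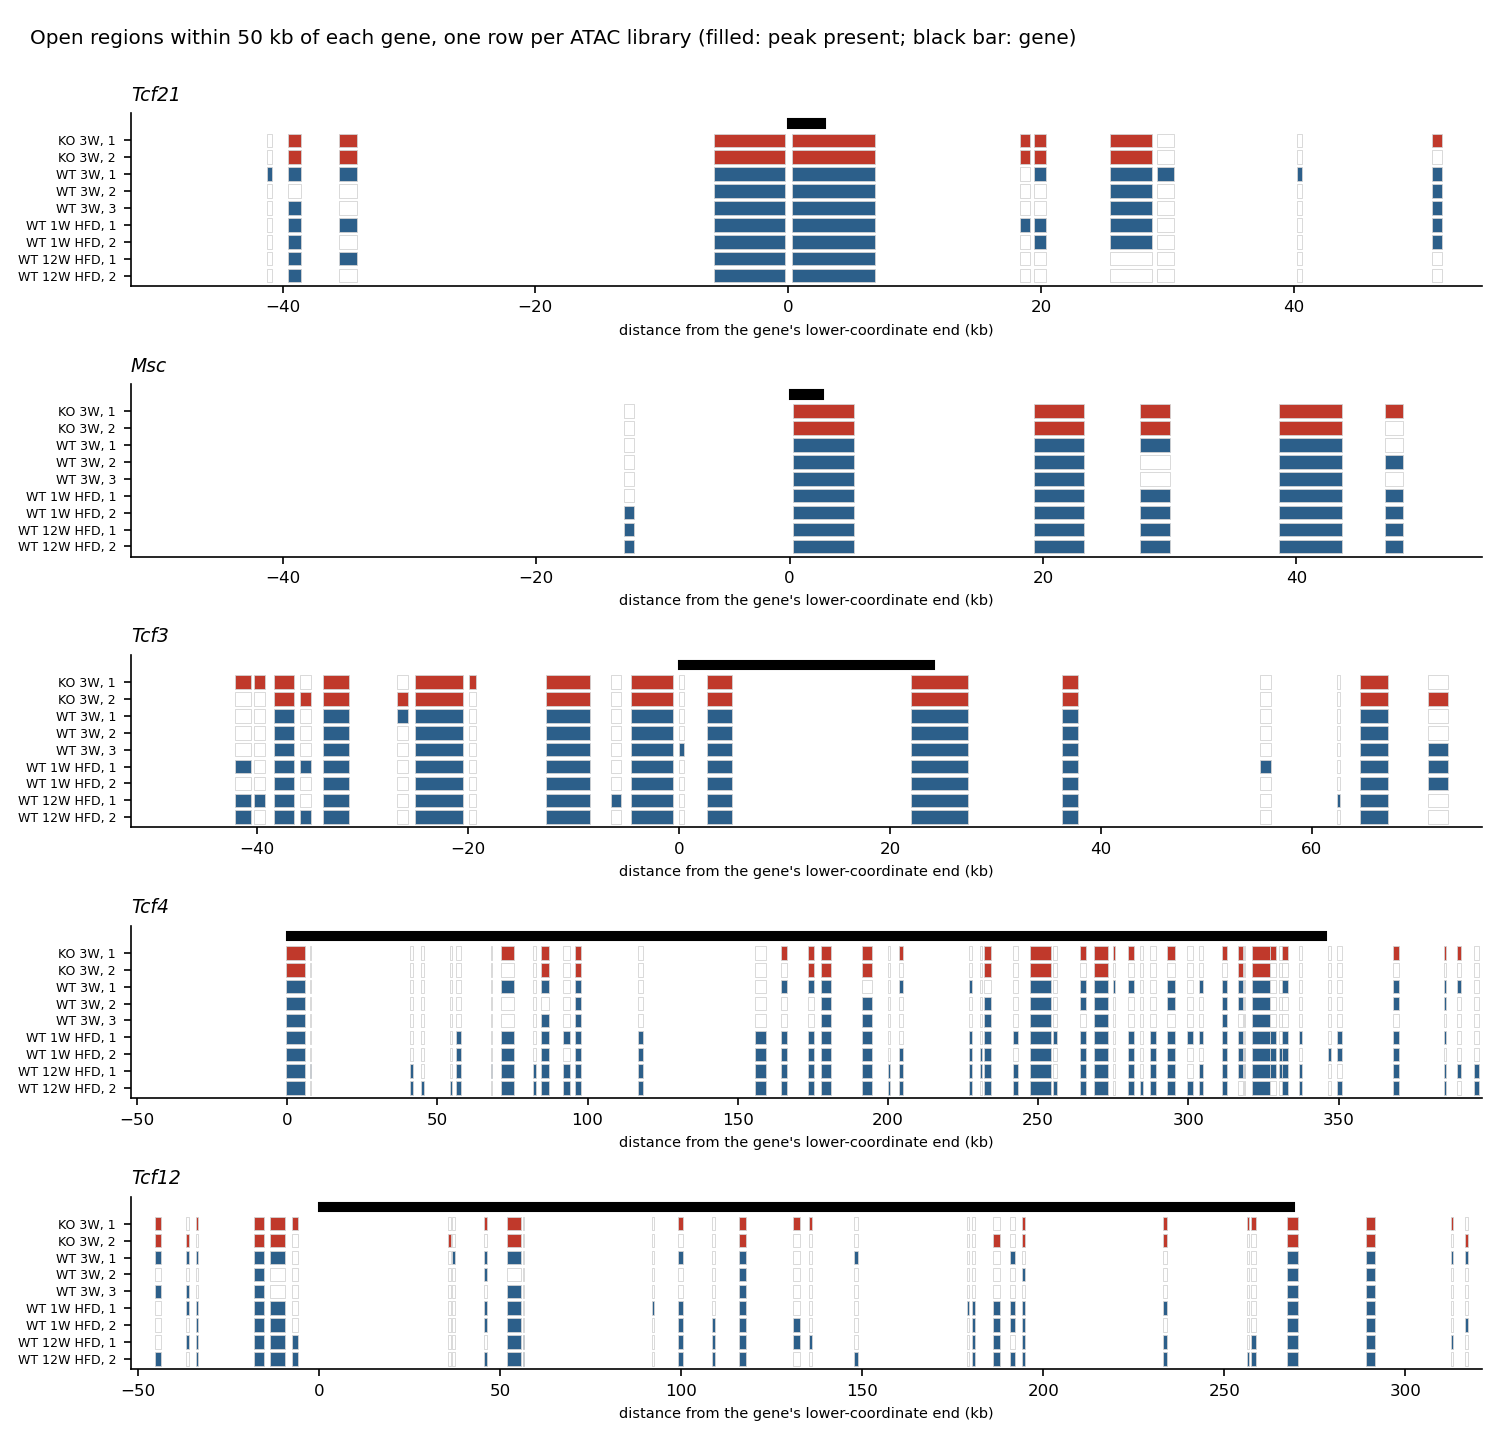
Open regions within 50 kb of each of the 5 genes, 1 row per ATAC-seq library with KO 3W at the top, by distance in kb from the gene's lower-coordinate end (filled, peak present; black bar, gene). The Tcf21 region 24.2 kb upstream of the start, which is to the right on this axis, is missing from both WT 12W HFD rows, and Msc has all 6 regions in both of those rows.

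A pair of distal regions near Tcf21 that every WT 3W library held were missing at WT 12W HFD. Of the 11 regions, 8 and 6 were open at WT 1W HFD and 4 and 3 at WT 12W HFD, against 10, 4 and 5 at WT 3W and 8 and 7 at KO 3W. The count of 10 was in WT 3W replicate 1, and the counts at WT 3W and WT 12W HFD meet at 4. The region chr10:22842708-22846069, 24.2 kb upstream of the start, was open in all 3 WT 3W and both KO 3W libraries and in neither WT 12W HFD library. Its −log10 q was 21.06 and 6.86 at KO 3W, 15.65, 8.91 and 3.73 at WT 3W, and 3.02 and 4.25 at WT 1W HFD. The WT 1W HFD values lay on either side of the lowest WT 3W value, and no peak was listed at WT 12W HFD. A second region, chr10:22868250-22869039, 48.5 kb upstream, was open in all 3 WT 3W libraries and absent at WT 12W HFD. KO 3W replicate 1 held it and KO 3W replicate 2 did not. In WT 3W replicate 2 the peak of this second region was under −log10 q of 5.

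Counted over the 5 genes, 2 of 108 regions were open in every WT 3W library and in neither WT 12W HFD library, and both were those Tcf21 regions. That is 1.85%, against 0.725% of all 104368 regions tested. In the other direction 20 of 108 (18.5%) were open only at WT 12W HFD, against 11.5% of all regions, with 11 at Tcf4, 7 at Tcf12, 1 at Msc, 1 at Tcf3 and 0 at Tcf21. All but one of the 11 Tcf4 regions lay inside the gene. An exact permutation test of 2 against 3 libraries cannot go below p = 0.1, and these counts are given without a test. With peaks kept only at −log10 q of at least 5, 13 of 82 regions were open only at 12W HFD, against 11.6% of all regions. At that setting 0 of 82 were open only at 3W, against 0.624%. Among libraries with A alone, 24 of 106 regions were open only at 12W HFD and 10 only at 3W, against 15.0% and 10.7% of all regions. Of the 10, 6 were at Tcf21, but this subset holds 1 WT 3W library, replicate 1. For 3 of those 6 regions, that library was the only one of the 9 with a peak.

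In the other time contrasts the shares near the 5 genes were within 1.5 times the background, or 0. At WT 1W HFD against 3W, 8 of 96 regions (8.33%) were open only at 1W HFD, 6 of them at Tcf4 and 2 at Tcf12, against 8.24% of all regions; 0 of 96 were open only at WT 3W, against 0.386%. Between the high-fat times, where all libraries carry A, 7 of 106 regions (6.6%) were open only at 12W HFD, 4 at Tcf4 and 3 at Tcf12, against 4.63% of all regions. In the same contrast 4 of 106 (3.77%) were open only at 1W HFD, 3 at Tcf21 and 1 at Tcf3, against 3.17%. Those 3 Tcf21 regions include both upstream regions named above.

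Few regions near the 5 genes differed between KO and WT in this way. In KO against WT at 3W, 2 of 83 regions (2.41%) were open only in KO, against 3.83% of all regions, and 0 of 83 were open only in WT, against 0.0647%. The KO-only regions were chr10:22835598-22836402, 15.9 kb upstream of Tcf21, and chr9:72075662-72076928 inside Tcf12. The Tcf21 one had −log10 q of 1.97 and 1.53, near the weakest peaks in those lists, and the Tcf12 one had 10.2 and 3.09. WT 1W HFD replicate 1, which is outside this comparison, also held a peak in the Tcf21 one. Among libraries with A, which are the pair of KO 3W replicate 1 and WT 3W replicate 1, 15 of 78 regions were only in KO and 11 only in WT. Among those with B the counts were 12 and 2 of 56. Over all regions the shares were 21.3% and 9.35% with A and 21.7% and 1.06% with B, so the count depends on which libraries are set side by side.

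**Figure D5:**
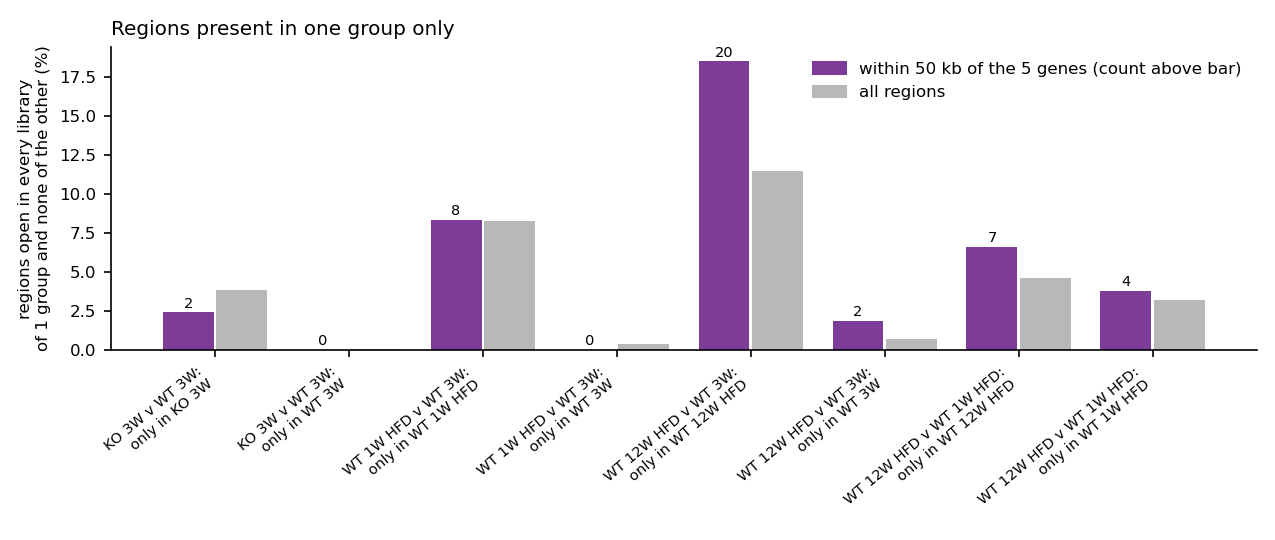
Percent of regions open in every library of one group and in no library of the other, for regions within 50 kb of the 5 genes (count above each bar) and for all regions, in each direction of the 4 ATAC-seq contrasts. The bar for regions only at WT 12W HFD stands at 18.5% near the 5 genes and 11.5% over all regions, and the KO-only bar at 2.41% and 3.83%.

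Near Msc more regions were listed in the high-fat libraries than at WT 3W, as was the case over all regions. All 6 were open in both WT 12W HFD libraries, 5 and 6 at WT 1W HFD, 5 and 4 at KO 3W, and 4, 4 and 3 at WT 3W. Over all regions, 78234 and 77089 were open at WT 12W HFD, against 67714, 48014 and 49460 at WT 3W. Of the 6 Msc regions, 1 was open in both WT 12W HFD libraries and in no WT 3W library, against 11.5% of all regions. The region chr1:14772633-14776591, 16641 bases above the gene's end coordinate, stood above 69.9% and 88.0% of its list at WT 12W HFD and 83.3% and 76.4% at WT 1W HFD. It stood above 72.3% and 40.3% at KO 3W and above 26.5%, 43.0% and 2.2% at WT 3W. These counts and ranks come from lists of different length and show no change by themselves. Msc transcript did not pass a test between those times.

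At Tcf4 the open regions numbered 41 and 39 at WT 12W HFD and 33 and 31 at WT 1W HFD, against 23, 14 and 10 at WT 3W, with 24 and 11 at KO 3W. At Tcf12 they numbered 20 and 21 at WT 12W HFD and 17 and 16 at WT 1W HFD, against 16, 6 and 7 at WT 3W, with 18 and 13 at KO 3W. Tcf3 showed 13 and 11 at WT 12W HFD, against 10, 9 and 11 at WT 3W. The lowest counts at Tcf4 and Tcf12 were in libraries with B, and over all regions the lists of WT 3W replicates 2 and 3 had 48014 and 49460 open regions, against 78234 and 77089 at WT 12W HFD. How far list length sets these numbers was not tested.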

How the data were processed

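TPM values per gene were deposited by the authors in 2 tables covering 29 RNA-seq libraries, and ATAC-seq peaks in 9 lists, 1 per library, on mm10 coordinates. The submitters' processing notes name Trim Galore 0.6, FastQC, STAR 2.5.3a, RSEM, Bowtie2 2.3, MACS2 and mm10, without roles. Each deposited peak row carries the authors' score, fold enrichment and −log10 p and q, as the MACS2 peak format holds them; score and −log10 p were not used. TPM columns summed to 918007.64 to 969384.9 here, so depth is unknown.

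The members and all gene lists were chosen with earlier results of these data known. Genes at 1 TPM or more in at least 2 libraries (15659) were fitted on log2(TPM + 1) with limma 3.58.1 (R 4.3.3) over all 8 groups, with 21 residual degrees of freedom, trended empirical Bayes and Benjamini-Hochberg adjustment over all tested genes. A call is an adjusted p under 0.05. The script was tested on simulated data. Exact permutation tests were two-sided. The named members are the 5 genes; list genes are named where they passed, or by the 3 largest changes, and likeness genes are the 5 highest correlations among genes averaging at least 5 TPM. Whether replicates were separate animals was not given in the sources used here, so p-values measure the spread between libraries, which may be technical. Peaks overlapping by at least 1 base were merged with Python 3.11.15.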

Additional observations from a re-analysis of the deposited data

Results flagged for a closer look

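Of 28 sets of replicate values looked at (each gene in each group of 4 to 10 libraries, and 2 of their shares), 1 had a library that stood far from the rest. Tcf3 was 40.66 TPM in WT 3W replicate 6, where the next highest of the 7 libraries had 21.35 TPM. The gap was 0.578 of the group's range, above Dixon's critical value for 7 values. Chance gives such a gap in about 1 of 20 groups.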

How the results depend on the processing

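Over 36 results on the 5 genes and 611 alternatives (other pseudocounts, filters and scalings, array weights, the compared groups alone, each library left out), 578 kept direction and side of the threshold, 5 lost the call, 7 gained it and 21 turned direction; the cause was not tested. The Tcf21 calls at WT 12W HFD and 6M against 3W held in every alternative. With the compared groups alone, Msc at WT 3W against P12 was 2.81 (adjusted p = 0.104) and Tcf21 at WT 1W HFD against 3W was -1.57 (adjusted p = 0.0512). Leaving out 1 library moved them from 2.25 to 3.37 and from -1.98 to -1.32, and Tcf21 at KO 12W HFD against 3W from -3.64 to -2.30. Direction turned only for changes that passed no test. The leave-one-out ranges for KO against WT at 3W were -0.19 to 0.14 for Tcf4 and -0.027 to 0.21 for Tcf12. At 1W HFD they were -0.024 to 0.28 for Msc, -0.32 to 1.54 for Tcf3, -0.29 to 0.41 for Tcf4 and -0.20 to 0.073 for Tcf12 (0.0028 with array weights). At 12W HFD they were -0.048 to 0.41 for Msc, -0.011 to 0.88 for Tcf3 and -0.090 to 0.19 for Tcf4. Tcf3 at WT 3W against P12 ran from -0.86 to 0.21, and Msc at WT 12W HFD against 3W from -0.31 to 0.10. A call was gained by Tcf4 with array weights at WT 1W HFD (0.76) and 12W HFD (0.58) and with median-ratio scaling at 12W HFD (0.56), by Tcf21 at WT 12W against 1W HFD with array weights (-1.21), and without WT 3W replicate 2 by Tcf12 at WT 3W against P12 (-1.11).

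The titles number pairs of 3W libraries. For RNA-seq, 5 of 6 same-pair correlations of deviations exceeded 0.1 (lowest -0.13, in pair 3, which has 2 WT libraries), so they were not treated as pairing. With the pair numbers as a replicate block, Tcf21 in KO against WT at 3W was -0.90 (adjusted p = 0.763) and 0 genes were called; the block changed no call of the 5 genes. All 5 pairs had less Tcf21 in KO (-0.89 ± 0.11 on average, SD); the exact p of a sign-flip test was 0.0625, and 5 pairs can give none smaller.

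The number of genes called ranged, over alternatives, from 0 to 2 for KO against WT at 3W, 1 to 26 at 1W HFD and 0 to 22 at 12W HFD. In WT it was 43 to 399 for 3W against P12, 664 to 1937 for 1W HFD and 686 to 1859 for 6M against 3W, 678 to 1882 for 12W against 1W HFD and 0 to 194 for 12W HFD against 6M. In KO it was 49 to 341 and 298 to 1409 for 1W and 12W HFD against 3W, and 0 to 261 for 12W against 1W HFD.

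Counts of ATAC regions open in one group depended on the peaks kept and on the libraries. So did the shares over all regions, which are given in brackets. The subsets by the letter of the peak names were chosen after seeing the data. KO-only regions numbered 0 at −log10 q of at least 5 (2.38%), 15 with A (21.3%) and 12 with B (21.7%). With 1 library left out they numbered 2 to 11 (4.8% or more). The count of 11 was without KO 3W replicate 2, where 14389 of all 89890 regions were only in KO. WT-only regions numbered 0 to 2 with 1 library left out (0.132% to 0.722%), 11 with A (9.35%) and 2 with B (1.06%). Regions only at WT 1W HFD against 3W numbered 17 of 91 when peaks had to cover at least 0.5 of a region (15238 of 95037 over all regions). They numbered 9 to 20 with 1 library left out (9.43% to 21.2%) and 13 with A (11.7%). Those only at 3W numbered 0 to 1 with 1 library left out (0.541% to 1.38%) and 10 with A (9.34%). Regions only at WT 12W HFD against 3W numbered 13 of 82 at −log10 q of at least 5 (11.6%) and 20 to 32 with 1 library left out (12.7% to 21.8%). Those only at 3W numbered 1 of 98 under the cover rule (0.529%), 0 of 82 at −log10 q of at least 5 (0.624%) and 10 of 106 with A (10.7%). Between high-fat times, with 1 library left out, 10 to 15 were only at 12W HFD (6.35% to 12.2%) and 6 to 8 only at 1W HFD (5.53% to 12.5%). Regions only at 1W HFD numbered 7 of 101 under the cover rule (6.08%) and 2 of 76 at −log10 q of at least 5 (3.41%).

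Depth is unknown and several groups hold 2 libraries, so a difference whose interval spans both directions cannot be told from none.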
